A study of Mus musculus with 9 samples.

Results

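The genes described here encode the proteins that take fatty acids into muscle, store them as triglyceride, carry them into mitochondria and oxidise them. The set was fixed as 40 named genes, and each was read from the probe set that the platform annotation pairs with it, the brightest where a gene has several. A probe set was found for 37 of the 40, among 19505 named genes on the array, and each of the 37 had a single one. Acsl1, Etfb and Ucp2 were not analysed here. The limit for background was set on each array at the 95th percentile of its 23 background sets. With that limit 34 of the 37 were above background on all 9 arrays, Slc27a4 on 1 array, and Angptl4 and Acot1 on none.

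The tibialis anterior, on the front of the shin and built mostly of fast fibres, was taken whole from mice 2 months old of the C57/BL6 strain. The MCU knockout group carried MCU-/-/MCUb+/+, the MCUb knockout group MCU+/+/MCUb-/- and the control group MCU+/+/MCUb+/+, with 3 arrays each. MCU is the pore subunit of the mitochondrial calcium uniporter and MCUb its paralogue in the same complex, and the series title names MCUb as its subject in relation to oxidative phosphorylation. The labels give no sex and do not say whether the deletions were confined to muscle, nor that each array of a genotype held a different animal. The p-values therefore reflect a spread between samples that may be technical in part.

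As background, lipoprotein lipase on the capillary wall frees fatty acids from circulating triglyceride, and CD36, transport proteins of the SLC27 family and the cytosolic carrier FABP3 bring them into the fibre. There they are esterified by DGAT enzymes into droplets coated with perilipins, or activated to acyl-CoA and passed through CPT1 and CPT2 into the matrix, where each turn of beta-oxidation shortens the chain and hands electrons to ETF and its dehydrogenase. Fibres rich in mitochondria burn more fat than fast glycolytic fibres, and many of these genes are known targets of PPAR nuclear receptors.

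All values below are deposited levels on a scale read as log2, and differences come from 1 limma fit of all 9 arrays with p-values adjusted by Benjamini-Hochberg over 22206 probe sets. Mcu served as the check of one label: its level was 6.80, 6.98 and 7.06 on the MCU knockout arrays, against 10.38, 10.96 and 10.46 on the control arrays (log2 change -3.65, limma adjusted p = 3.47e-05). No such check was made for the other deletion, because Mcub was not analysed here. All 11 fast fibre markers with a probe set were above background on every array. Control replicate 3 stood apart from the other 8 arrays, at 70.8 on the first principal component against -21.9 to 20.3. The Y-linked genes Uty and Kdm5d had signal on 3 arrays only: their mean was 7.56 on MCU knockout replicate 2, 7.24 on MCU knockout replicate 3 and 7.80 on MCUb knockout replicate 1, and elsewhere 3.01 to 3.89. Eif2s3y, likewise Y-linked, was above background on 0 arrays. In whole muscle, fewer cells of a type and less RNA per cell cannot be told apart.

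Stretches before the start sites of 4 genes on which the account turns are shown here, from RefSeq with build GRCm38.p6. Ucp3, which encodes a mitochondrial carrier that rises in muscle when fatty acids are plentiful, and Pdk4, whose kinase inactivates pyruvate dehydrogenase and which is no member of the set, are shown because both lay on opposite sides of control in the knockouts. Hadha and Hadhb encode both subunits of the trifunctional protein and lie head to head, 272 bases apart from start to start. The 228 bases that precede both starts are shown because the pair shares them. Capitals mark AGGTCA, the half-site of many nuclear receptors, searched on both strands in the 250 bases before a start.
Ucp3, chr7:100472741-100472990, plus strand: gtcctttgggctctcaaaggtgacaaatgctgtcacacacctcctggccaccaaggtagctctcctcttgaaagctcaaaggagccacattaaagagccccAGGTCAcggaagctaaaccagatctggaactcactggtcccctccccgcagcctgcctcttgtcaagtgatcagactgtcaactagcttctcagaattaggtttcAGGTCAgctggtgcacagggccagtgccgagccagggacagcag
Pdk4, chr6:5496279-5496528, minus strand: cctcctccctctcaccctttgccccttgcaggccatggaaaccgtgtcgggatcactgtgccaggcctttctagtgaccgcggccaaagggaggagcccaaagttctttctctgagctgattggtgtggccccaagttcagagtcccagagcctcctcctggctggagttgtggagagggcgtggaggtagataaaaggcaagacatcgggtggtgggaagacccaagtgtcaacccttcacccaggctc
Hadha and Hadhb, chr5:30155003-30155230, plus strand: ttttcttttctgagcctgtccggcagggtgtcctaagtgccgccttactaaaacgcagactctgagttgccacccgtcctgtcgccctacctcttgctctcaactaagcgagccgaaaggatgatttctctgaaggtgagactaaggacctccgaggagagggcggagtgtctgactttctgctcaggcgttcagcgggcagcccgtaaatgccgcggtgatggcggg

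In the Ucp3 window AGGTCA begins 149 and 44 bases before the start. The E-box CAGCTG begins 40 bases before it and shares letters with the nearer half-site. The Pdk4 and Hadha-Hadhb stretches hold 0 half-sites. Of all 32851 promoter windows in the table, 14.0% held the half-site and 1.36% held 2 or more. Among the 29 members with a window, 8 held it: Acadm, Acadvl, Cd36, Cpt1a, Echs1, Plin2, Plin5 and Ucp3. The direct repeat bound by PPAR, searched as AGGNCA, any base and AGGNCA again, was in 0 of the 29 and in 0.338% of all windows, and the E-box was in 5 of the 29 and in 13.0% of all windows. A match is a description of letters in these windows and no evidence of binding.

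In limma no member passed the adjusted threshold of 0.05 in any of the 3 comparisons, where 0.140%, 0.0225% and 0.158% of all probe sets did, in the order MCU knockout minus control, MCUb knockout minus control and MCU knockout minus MCUb knockout. In MCU knockout muscle 27 of the 37 lay below control and 10 above, with a median log2 change of -0.25, against -0.02 over all probe sets, of which 52.4% lay below. At an unadjusted p under 0.05 there were 5 members lower (13.5%) and 0 higher, where 5.35% of all probe sets were lower and 4.76% higher. The 5 were Dgat2, Plin5, Acss1, Hadha and Eci1. Counting only probe sets above background on all 9 arrays, 5 of 34 members passed that level in either direction (14.7%), near the 13.3% of the 8684 such probe sets that did. All 5 were lower, while of those 8684 probe sets 640 were lower and 519 higher. MCU knockout and control did not overlap in 7 members, all lower (Fabp3, Dgat2, Plin5, Acss1, Cpt2, Crat and Eci1), where 7.33% of all probe sets did not overlap and were lower and 6.08% higher.

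In MCUb knockout muscle 29 of the 37 lay below control and 8 above, with a median log2 change of -0.23, against -0.03 over all probe sets, of which 54.0% lay below. At an unadjusted p under 0.05 there were 6 lower (16.2%), namely Cd36, Plin5, Acss1, Echs1, Etfdh and Ucp3, and 0 higher, where 4.21% of all probe sets were lower and 3.90% higher. Of the 34 members above background the 6 were 17.6%, against 10.4% of such probe sets in either direction. All 6 were lower, while of the 8684 such probe sets 422 were lower and 480 higher. These 6 did not overlap with control, and neither did Acadl and Hadh, which were higher, where 7.02% of all probe sets were lower and 5.73% higher without overlap. Both comparisons use the same 3 control arrays. Set directly against each other, MCU knockout and MCUb knockout lay close as a set: 21 members were lower in MCU knockout muscle and 16 higher, with a median of -0.03 (0.01 over all probe sets, of which 47.7% were lower). There 1 member, Dgat2, was lower and 1, Ucp3, higher at an unadjusted p under 0.05, against 3.02% and 2.68% of all probe sets. These were 5.88% of the 34 members above background, where 8.13% of such probe sets passed that level. Fabp3 was lower and Ucp3 higher without overlap, as were 6.19% and 6.59% of all probe sets. The median 95% interval of a member's change reached 0.52 to each side, so shifts of this size were mostly within the error of single genes.

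**Figure D1:**
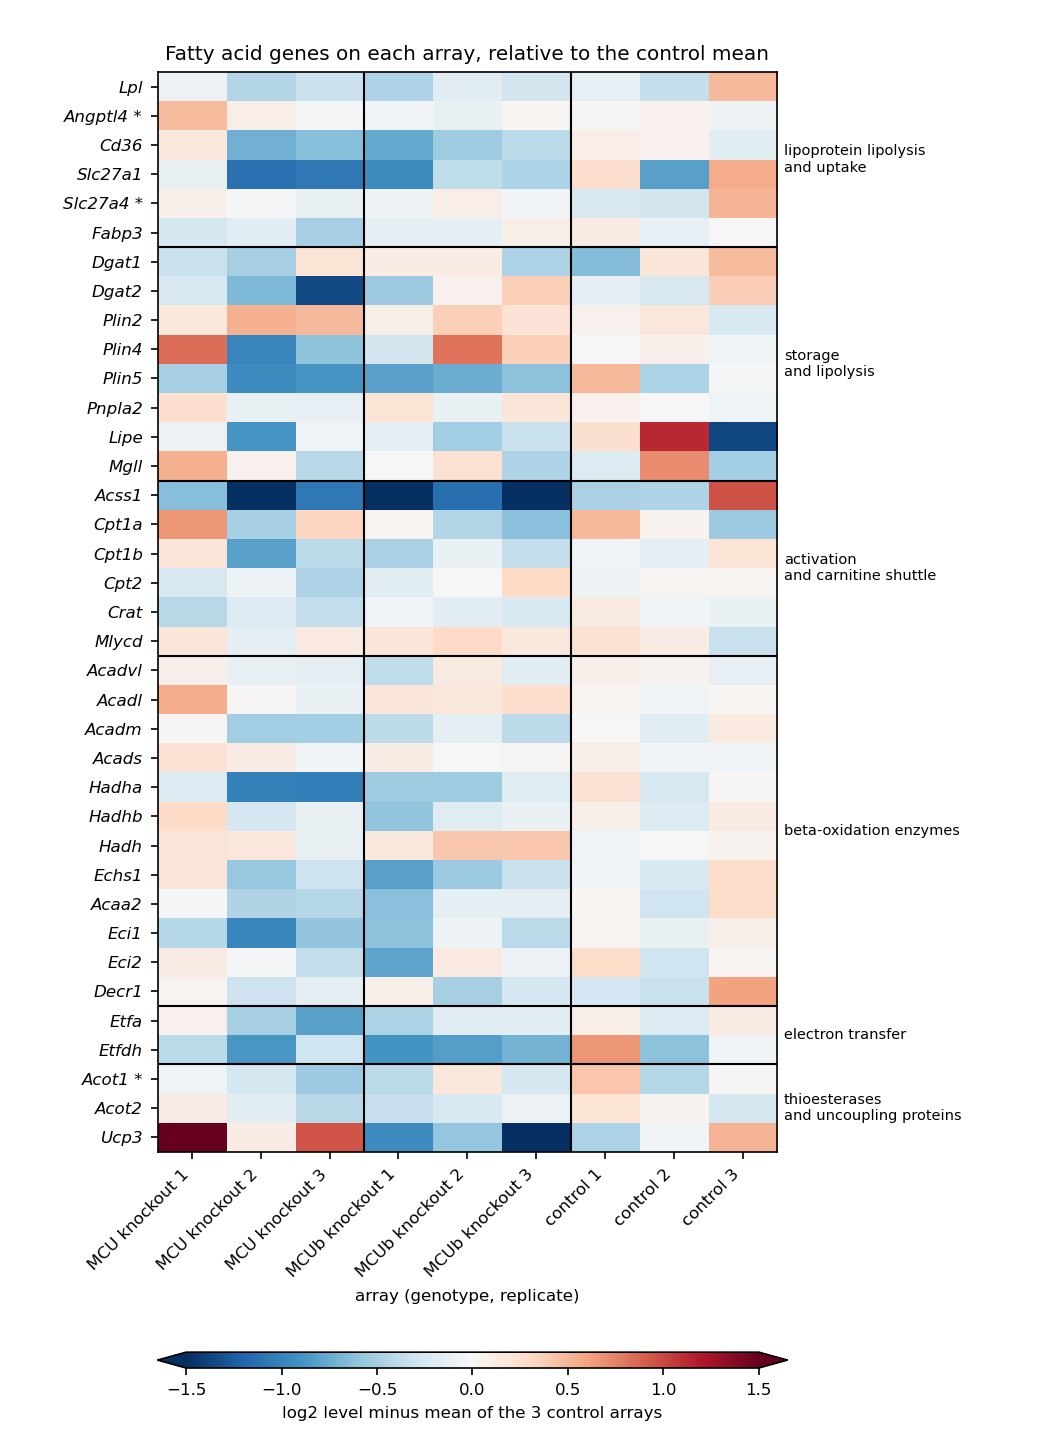
Log2 level of each of the 37 measured members (rows, in 6 roles) on each of the 9 arrays (columns), minus the mean of the 3 control arrays; colours stop at 1.5 to either side, and an asterisk marks genes not above background on all 9 arrays. Blue is densest on MCU knockout replicates 2 and 3 and MCUb knockout replicate 1, while Ucp3 is red in the MCU knockout and blue in the MCUb knockout.

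**Figure D2:**
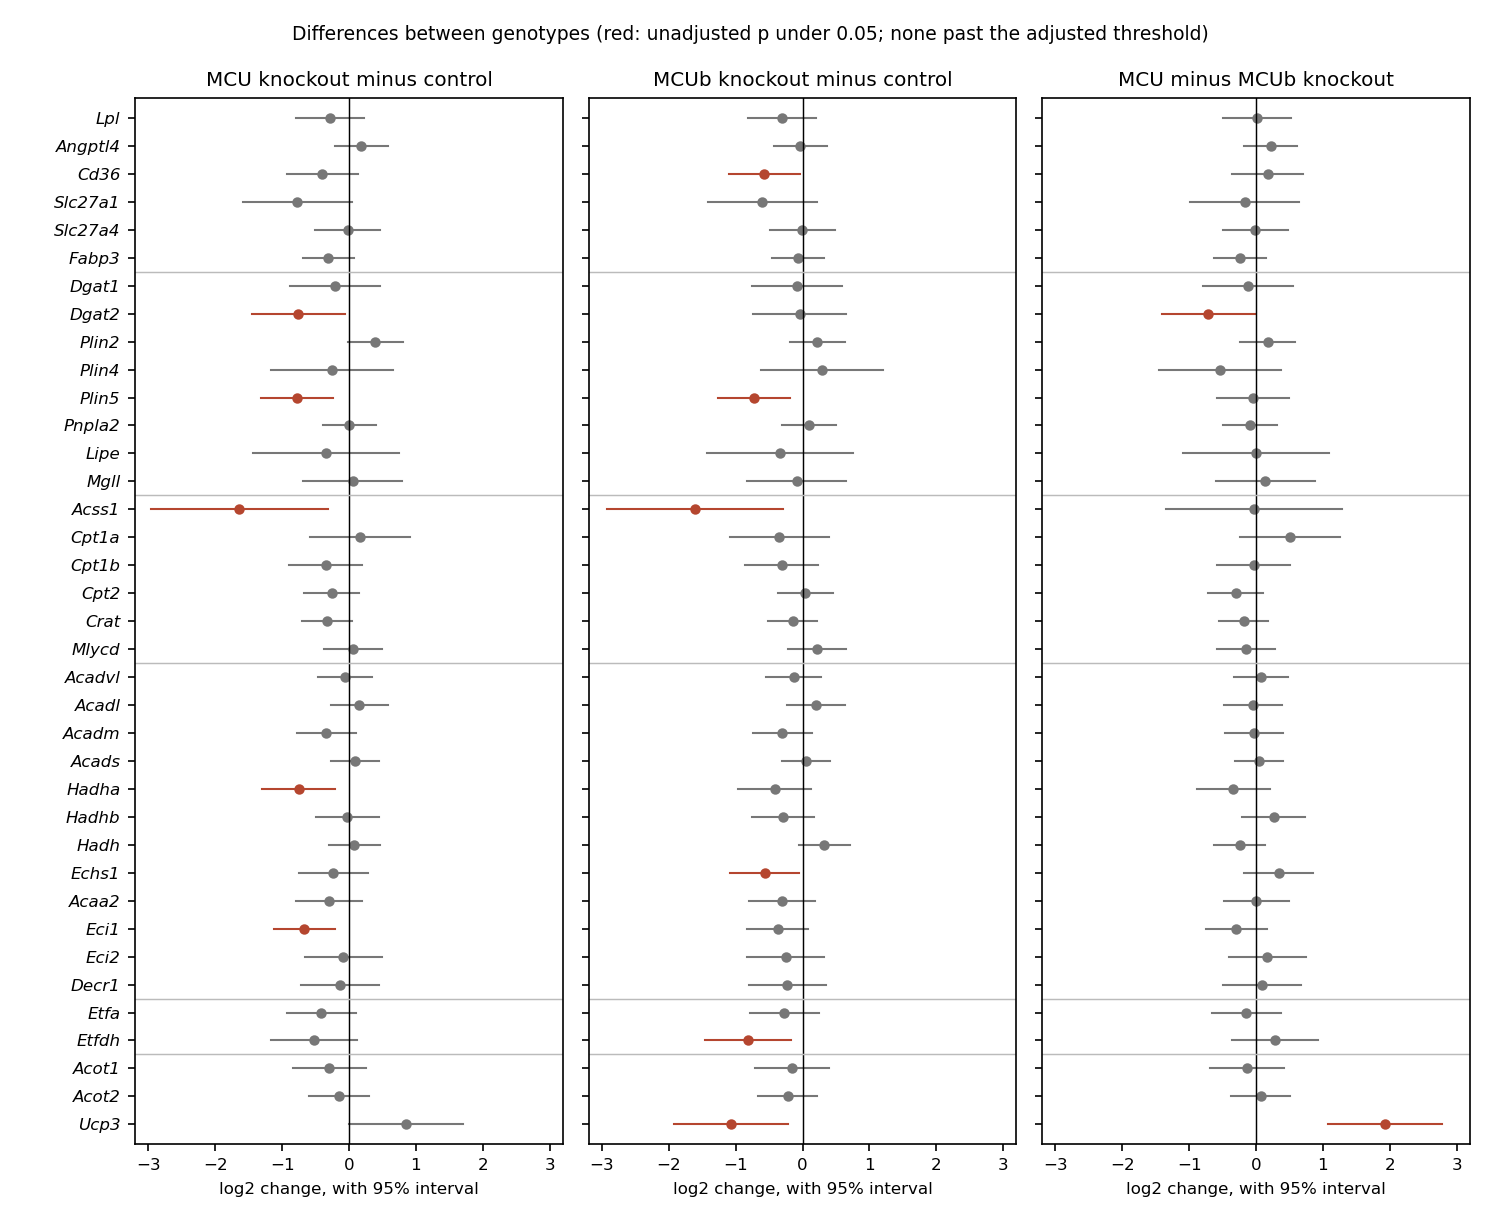
Log2 change of each of the 37 members (rows) with its 95% interval from the limma fit, in 1 panel for each comparison: MCU knockout minus control, MCUb knockout minus control, and MCU knockout minus MCUb knockout. Red marks an unadjusted p under 0.05, which 5, 6 and 2 members reached, and 0 members passed the adjusted threshold.

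Of the 6 genes of lipolysis at the capillary wall and uptake, 4 were above background on all 9 arrays (Lpl, Cd36, Slc27a1 and Fabp3). All 4 lay below control in each knockout, with medians of -0.35 in the MCU knockout and -0.44 in the MCUb knockout. With Angptl4 and Slc27a4 included the medians were -0.30 and -0.18. Cd36 (TC0500001992.mm.2, chromosome 5), the main fatty acid translocase of muscle, had levels of 14.32, 13.44 and 13.53 on the MCU knockout arrays, of 13.39, 13.62 and 13.76 on the MCUb knockout arrays and of 14.27, 14.23 and 13.99 on the control arrays. Every MCUb knockout array lay below every control array, while MCU knockout replicate 1 lay above all 3 controls. The MCUb knockout mean was 13.59 ± 0.19 and the control mean 14.16 ± 0.15 (SD, n = 3 each), a log2 change of -0.57 (SE 0.24, limma adjusted p = 0.591). In the MCU knockout the change was -0.40 (SE 0.24, limma adjusted p = 0.603).

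Slc27a1 (TC0800000796.mm.2, chromosome 8), a transport protein that also activates the fatty acids it carries, showed the same low arrays. Its level was 12.92, 11.91 and 11.96 in the MCU knockout, 12.09, 12.65 and 12.57 in the MCUb knockout, and 13.29, 12.23 and 13.60 in control. Control replicate 2 was low as well, so the groups overlapped. The log2 changes against control were -0.77 and -0.60 (SE 0.37 each, limma adjusted p of 0.512 and 0.678). Fabp3, the cytosolic carrier of heart and muscle, averaged 17.16 ± 0.18 in the MCU knockout, 17.41 ± 0.13 in the MCUb knockout and 17.47 ± 0.12 in control. No MCU knockout array overlapped with control, although the change was only -0.31 (SE 0.18, limma adjusted p = 0.585). Lpl, the lipase itself, stood 0.29 and 0.30 lower on the log2 scale in the MCU and MCUb knockouts (7.62 ± 0.18 and 7.61 ± 0.15, against 7.91 ± 0.44 in control). The SE was 0.23 each, with limma adjusted p of 0.698 and 0.738, and the groups overlapped. Its control levels were 7.785, 7.549 and 8.394, so control replicate 3 set much of the difference. For Angptl4, the circulating inhibitor of that lipase, and Slc27a4, levels near or under background give no usable difference: Angptl4 lay between 4.63 and 5.21 on all arrays, and Slc27a4 exceeded background only on control replicate 3.

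The 8 genes of droplet storage and lipolysis were split in direction. In MCU knockout muscle 5 lay below control and 3 above (median -0.23), and in MCUb knockout muscle again 5 and 3 (median -0.06). Plin5 (TC1700002314.mm.2, chromosome 17), the perilipin that ties droplets to mitochondria in oxidative tissue, had levels of 6.71, 6.26 and 6.33 in the MCU knockout, of 6.39, 6.47 and 6.59 in the MCUb knockout and of 7.69, 6.73 and 7.20 in control. All 6 knockout arrays lay below all 3 control arrays, the closest pair being MCU knockout replicate 1 at 6.71 and control replicate 2 at 6.73. The log2 change was -0.77 in the MCU knockout (SE 0.24, limma adjusted p = 0.358) and -0.72 in the MCUb knockout (SE 0.24, limma adjusted p = 0.534). The spread in control alone was 0.48 (SD), and without control replicate 1 the MCUb knockout change was -0.48.

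Dgat2 (TC0700003793.mm.2, chromosome 7), one of a pair of enzymes that complete triglyceride synthesis, was low in the MCU knockout. Its level was 10.46, 10.02 and 9.34 there, against 10.14, 10.76 and 11.06 in the MCUb knockout and 10.56, 10.46 and 11.07 in control. The means were 9.94 ± 0.56, 10.65 ± 0.46 and 10.69 ± 0.33 (SD, n = 3 each). The change between MCU knockout and control was -0.76 (SE 0.32, limma adjusted p = 0.471), and between MCU knockout and MCUb knockout -0.72 (SE 0.32, limma adjusted p = 0.861). Replicate 3 carried much of both: without it they were -0.46 and -0.42. Dgat1, its counterpart, had a change of -0.21 in the MCU knockout (SE 0.31).

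Plin2, the perilipin found on droplets of most cell types, had the largest positive change of the storage genes in the MCU knockout. It averaged 10.68 ± 0.20 there, 10.51 ± 0.13 in the MCUb knockout and 10.28 ± 0.21 in control, differences of 0.39 and 0.22 from control (SE 0.19 each, limma adjusted p of 0.513 and 0.765). Plin2 was also the only member with all 6 knockout arrays above the control mean, while 10 of the 37 had all 6 below it. The share of all probe sets with either pattern was not counted. Plin4 ran from 10.77 to 12.60 within the MCU knockout alone, wider than any difference between its group means. Pnpla2, the adipose triglyceride lipase that starts lipolysis, differed from control by 0.01 and 0.09 (SE 0.18), with 95% intervals of -0.39 to 0.41 and -0.31 to 0.49. Lipe, the hormone-sensitive lipase, ran from 6.73 to 9.22 within the control arrays, so its changes of -0.34 in each knockout (SE 0.50) cannot be read. Mgll, which cleaves the last fatty acid from the glycerol, had changes of 0.06 and -0.08 (SE 0.34).

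Among the 6 measured genes of activation and the carnitine shuttle, 4 lay below control and 2 above in each knockout, with medians of -0.29 in the MCU knockout and -0.23 in the MCUb knockout. Acss1 (TC0200004843.mm.2, chromosome 2), which activates acetate in the matrix, had the most negative change of any member. Levels were 9.51, 6.95 and 9.07 in the MCU knockout, 8.04, 9.02 and 8.56 in the MCUb knockout, and 9.65, 9.69 and 11.10 in control. No knockout array overlapped with control, but the ends of the range were MCU knockout replicate 2 and control replicate 3. The log2 changes were -1.64 and -1.61 (SE 0.60 each, 3.11-fold and 3.04-fold lower, limma adjusted p of 0.412 and 0.562). Without control replicate 3 they were -1.16 and -1.13, and without MCU knockout replicate 2 the first was -0.86.

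Crat (TC0200003271.mm.2, chromosome 2), which turns acetyl-CoA into acetylcarnitine that can leave the matrix, had one of the tightest spreads. Its level was 13.11, 13.34 and 13.15 in the MCU knockout, 13.48, 13.37 and 13.30 in the MCUb knockout, and 13.66, 13.48 and 13.43 in control. MCU knockout and control did not overlap, with a log2 change of -0.33 (SE 0.17, limma adjusted p = 0.539). Cpt1b, the muscle isoform of the step that commits acyl-CoA to the mitochondrion, averaged 13.59 ± 0.50, 13.63 ± 0.20 and 13.94 ± 0.18 in the MCU knockout, the MCUb knockout and control. Its changes against control were -0.35 and -0.31 (SE 0.25). Cpt1a, the liver isoform, had changes of 0.16 and -0.34 (SE 0.34). Cpt2, on the inner membrane, was at 11.01 ± 0.19 in the MCU knockout and 11.27 ± 0.07 in control without overlap (change -0.26, SE 0.19). Mlycd, which removes the CPT1 inhibitor malonyl-CoA, had changes of 0.06 and 0.21 (SE 0.20).

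The 12 beta-oxidation enzymes lay mostly below control, 9 lower and 3 higher in each knockout, with medians of -0.11 in the MCU knockout and -0.27 in the MCUb knockout. Hadha (TC0500002154.mm.2, chromosome 5), the alpha subunit of the trifunctional protein, had levels of 13.50, 12.69 and 12.67 in the MCU knockout, of 13.18, 13.18 and 13.53 in the MCUb knockout and of 13.93, 13.47 and 13.73 in control. The log2 change was -0.75 in the MCU knockout (SE 0.25, 1.69-fold lower, limma adjusted p = 0.373) and -0.41 in the MCUb knockout (SE 0.25, limma adjusted p = 0.671). Hadhb, the beta subunit that shares the stretch printed above, gave -0.03 (SE 0.21, 95% interval -0.50 to 0.44) and -0.29 (SE 0.21). Its levels were 13.87, 13.32 and 13.47 in the MCU knockout, 12.99, 13.40 and 13.48 in the MCUb knockout, and 13.66, 13.37 and 13.71 in control. The difference between the changes of Hadha and Hadhb was not tested.

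Eci1 (TC1700000337.mm.2, chromosome 17), the isomerase that lets unsaturated chains re-enter the cycle, was lower on every MCU knockout array. Levels were 13.46, 12.91 and 13.29 in the MCU knockout, 13.27, 13.81 and 13.47 in the MCUb knockout, and 13.92, 13.77 and 13.96 in control. The MCU knockout change was -0.67 (SE 0.21, 1.59-fold lower, limma adjusted p = 0.352), against a control SD of 0.10. In the MCUb knockout it was -0.37 (SE 0.21, limma adjusted p = 0.653). Eci2, the related isomerase, and Decr1, the reductase for polyunsaturated chains, had changes of -0.08 and -0.14 in the MCU knockout and of -0.25 and -0.23 in the MCUb knockout (SE 0.26).

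Echs1 (TC0700004494.mm.2, chromosome 7), the short-chain hydratase, was the enzyme of the cycle that lay lowest in the MCUb knockout. It had levels of 13.40, 12.65 and 12.91 in the MCU knockout, of 12.41, 12.66 and 12.88 in the MCUb knockout and of 13.18, 12.98 and 13.50 in control. No MCUb knockout array overlapped with control, with a log2 change of -0.57 (SE 0.24, limma adjusted p = 0.583), against -0.23 in the MCU knockout (SE 0.24).

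The acyl-CoA dehydrogenases, which open each turn for chains of different length, differed in how far they lay from control. Acadvl for very long chains had changes of -0.06 and -0.13, and Acads for short chains of 0.10 and 0.05, in the MCU and MCUb knockouts. Acadm for medium chains was lower by similar amounts in each (-0.34 and -0.30, SE 0.20). Acadl for long chains stood at 12.47 ± 0.34 in the MCU knockout, 12.51 ± 0.05 in the MCUb knockout and 12.31 ± 0.05 in control, so that MCUb knockout and control did not overlap although the change was 0.20 (SE 0.20, limma adjusted p = 0.791). Hadh, the short-chain hydroxyacyl dehydrogenase, also lay above control without overlap, at 14.35 ± 0.14 in the MCUb knockout and 14.02 ± 0.05 in control (change 0.32, SE 0.17, limma adjusted p = 0.638). Acaa2, the matrix thiolase, had a change of -0.30 in each (SE 0.22).

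Both measured electron transfer genes lay below control in each knockout. Etfdh (TC0300002199.mm.2, chromosome 3), the dehydrogenase that passes electrons from ETF to ubiquinone, had levels of 10.06, 9.59 and 10.16 in the MCU knockout, of 9.56, 9.63 and 9.75 in the MCUb knockout and of 11.12, 9.85 and 10.41 in control. MCUb knockout and control did not overlap, with a log2 change of -0.81 (SE 0.29, 1.75-fold lower, limma adjusted p = 0.555). Control replicate 1 set much of it, and without that array it was -0.48. The MCU knockout change was -0.52 (SE 0.29, limma adjusted p = 0.571). Etfa, the alpha subunit of ETF, had levels of 16.33, 15.76 and 15.45 in the MCU knockout, 15.79, 16.10 and 16.09 in the MCUb knockout, and 16.34, 16.06 and 16.38 in control. Its changes were -0.41 and -0.27 (SE 0.24, limma adjusted p of 0.579 and 0.771), and the groups overlapped.

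Ucp3 (TC0700001408.mm.2, chromosome 7) differed more between the knockouts than any other member. Its level was 12.77, 11.39 and 12.22 in the MCU knockout, 10.34, 10.70 and 9.58 in the MCUb knockout, and 10.80, 11.23 and 11.79 in control. Every MCU knockout array lay above the control mean and every MCUb knockout array below it, and all 3 MCU knockout arrays exceeded all 3 MCUb knockout arrays. The means were 12.13 ± 0.70, 10.20 ± 0.57 and 11.28 ± 0.49 (SD, n = 3 each). The direct difference, MCU knockout minus MCUb knockout, was 1.92 on the log2 scale (SE 0.39, 3.79-fold, 95% interval 1.07 to 2.78), with a limma adjusted p of 0.135 over all probe sets. Against control the changes were 0.85 (SE 0.39, limma adjusted p = 0.494) and -1.07 (SE 0.39, limma adjusted p = 0.556). MCU knockout and control overlapped, while MCUb knockout and control did not. Over all probe sets 2.12% had every array of one knockout on one side of the control mean and every array of the other knockout on the other, and Ucp3 was the only member among the 37.

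Pdk4 (TC0600001810.mm.2, chromosome 6), named by the rule as the PPAR target outside the set with the smallest p, had levels of 11.81, 10.99 and 11.46 in the MCU knockout, of 10.33, 9.40 and 8.91 in the MCUb knockout and of 10.01, 10.85 and 10.38 in control. All MCU knockout arrays lay above all control arrays, and MCUb knockout replicate 1 lay within the control range. MCU knockout minus MCUb knockout was 1.87 (SE 0.36, 3.66-fold, limma adjusted p = 0.112), with 1.01 and -0.87 against control (limma adjusted p of 0.404 and 0.578). Across the 11 measured PPAR targets outside the set, the median difference between the knockouts was 0.00. At an unadjusted p under 0.05, 1 was higher (Pdk4) and 0 lower, where 2.68% of all probe sets were higher and 3.02% lower. Only 5 of the 11 were above background on all 9 arrays, and Fgf21, Cyp4a10, Cyp4a14 and Vnn1 were on none. The median therefore rests in part on genes without a usable difference.

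The acyl-CoA thioesterases Acot1 (cytosol) and Acot2 (mitochondria) are neighbouring, nearly identical copies on chromosome 12, so their probe sets may not be fully separate. Acot1 was not above background on any array: its signal was 4.18, 3.98 and 3.71 in the MCU knockout, 3.85, 4.42 and 3.996 in the MCUb knockout, and 4.66, 3.82 and 4.26 in control. Acot2 had levels of 9.18, 8.89 and 8.64 in the MCU knockout, of 8.71, 8.83 and 8.97 in the MCUb knockout and of 9.26, 9.11 and 8.79 in control, with changes of -0.15 and -0.22 (SE 0.20) and overlapping groups.

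**Figure D3:**
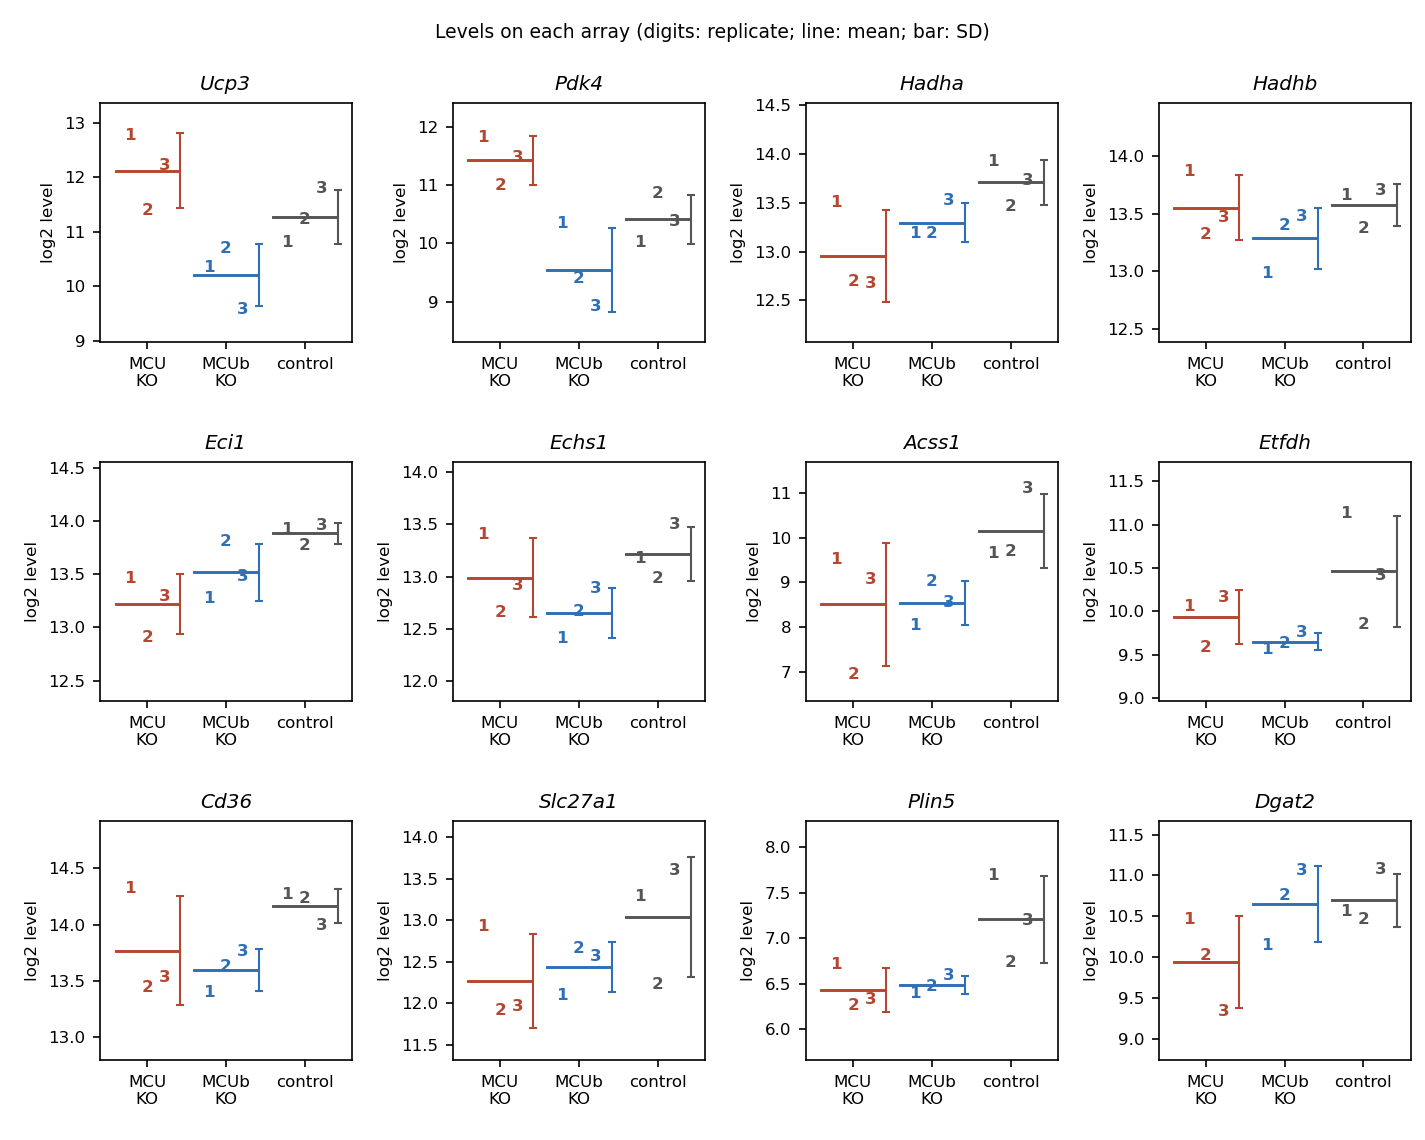
Log2 level of 11 members and of Pdk4 in MCU knockout (left), MCUb knockout (middle) and control muscle (right); digits are replicates, the horizontal line is the mean of 3 arrays and the bar the SD. Ucp3 and Pdk4 lie above the control mean on all 3 MCU knockout arrays and below it on all 3 MCUb knockout arrays, while in Hadha, Cd36 and Slc27a1 MCU knockout replicate 1 sits apart above replicates 2 and 3.

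Uptake and storage genes were set against beta-oxidation enzymes on each array, as the mean over 12 genes of each kind above background, relative to the control mean. On MCU knockout replicates 1, 2 and 3 the uptake and storage genes lay at 0.03, -0.50 and -0.44 and the beta-oxidation enzymes at 0.09, -0.33 and -0.32. On MCUb knockout replicates 1, 2 and 3 they lay at -0.31, -0.09 and -0.15, and at -0.35, -0.11 and -0.11. The control arrays ran from -0.04 to 0.03 for uptake and storage and from -0.16 to 0.12 for the enzymes. The narrow control range of uptake and storage hides deviations of opposite sign. The 4 uptake genes lay at 0.09, -0.31 and 0.22 on control replicates 1, 2 and 3, and the 8 storage genes at -0.02, 0.19 and -0.17. The 4 uptake genes lay at -0.08, -0.61 and -0.63 in the MCU knockout and at -0.58, -0.31 and -0.26 in the MCUb knockout. The 8 storage genes lay at 0.08, -0.44 and -0.34 in the MCU knockout and at -0.17, 0.02 and -0.10 in the MCUb knockout. Uptake genes and beta-oxidation enzymes were thus below the control range on MCU knockout replicates 2 and 3 and MCUb knockout replicate 1. Uptake genes were also marginally below it on MCUb knockout replicate 2. Storage genes were below it on MCU knockout replicates 2 and 3 only. On MCUb knockout replicate 1 the storage genes lay at -0.172, almost level with the lowest control array, replicate 3, at -0.175. MCU knockout replicate 1 lay within the control range for the enzymes. No test was made of the difference between the kinds. The medians of the changes were -0.30 for the 12 uptake and storage genes and -0.11 for the 12 enzymes in the MCU knockout, and -0.08 and -0.27 in the MCUb knockout. The gap between the kinds in the MCUb knockout depends on the use of the median. Their means on its arrays lay closer together, at -0.31 and -0.35, at -0.09 and -0.11, and at -0.15 and -0.11.

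MCU knockout replicates 2 and 3 and MCUb knockout replicate 1 are the arrays with Uty and Kdm5d signal. With the mean level of those genes as a covariate, the members' median for MCU knockout minus control was -0.04. On the 6 arrays without that signal, which include 1 MCU knockout array, it was 0.07, and for MCUb knockout minus control it was -0.16. Single arrays also moved these medians. The MCU knockout median of -0.25 became -0.29, -0.12 and -0.17 when replicates 1, 2 and 3 of that group were left out in turn. The MCUb knockout median of -0.23 was -0.16 without MCUb knockout replicate 1 and -0.32 without control replicate 2. Without control replicate 3 the medians were -0.20 and -0.19.

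Slow and IIa fibre markers lay on either side of control. Of 12 measured, 5 lay below control in the MCU knockout and 7 above (median 0.09), and 9 below and 3 above in the MCUb knockout (median -0.18). At an unadjusted p under 0.05, 3 were lower (Casq2, Myh2 and Myl2) and 2 higher (Tnnt1 and Atp2a2) in the MCU knockout, and 0 in the MCUb knockout. The 11 slow and IIa fibre markers above background had a mean deviation of -0.25, -0.35 and -1.13 on the MCU knockout arrays, of -0.88, 0.22 and -0.03 on the MCUb knockout arrays, and between -0.04 and 0.03 in control. Their summed log2 level ran from 113.8 to 123.4 in the MCU knockout and from 116.5 to 128.6 in the MCUb knockout. In control it ran from 125.8 to 126.4. Tnni1, the slow troponin I, was above background on 2 of the 9 arrays. Casq2, the slow calsequestrin, had a change of -2.32 in the MCU knockout (SE 0.53, limma adjusted p = 0.204) and one of -0.62 in the MCUb knockout. Myh2, the IIa myosin, had a change of -2.09 (SE 0.65, limma adjusted p = 0.349) and one of -0.45. On the other side of control, Tnnt1, the slow troponin T, had changes of 0.60 and 0.49 (SE 0.26), and Atp2a2, the slow calcium pump, changes of 0.59 and -0.08 (SE 0.23). Tnnc1, the slow troponin C, had changes of 0.40 and -0.21 (SE 0.44), and Myh7, the slow myosin, 0.19 and -0.05 (SE 0.24). Tnnt1, Tnnc1 and Atp2a2 had their highest level of the MCU knockout arrays on replicate 2. The part of fibre type in the members' levels was not tested.

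A list of 10 genes of mitochondrial content (citrate cycle, respiratory chain, cytochrome c, Vdac1 and Tfam) lay close to control on the same arrays, with mean deviations between -0.04 and 0.14 on the 6 knockout arrays and between -0.09 and 0.06 in control. Citrate synthase, Cs, had a change of -0.14 in the MCU knockout and one of 0.13 in the MCUb knockout (SE 0.16), and Tfam, the packaging factor of mitochondrial DNA, had changes of 0.80 and 0.57 (SE 0.33, limma adjusted p of 0.467 and 0.663). The fast fibre markers had medians of 0.15 and 0.13 against control, with Casq1 at 0.31 and 0.20 and Ckm at 0.31 and 0.20 (SE 0.20 and 0.21).

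Of 10 measured adipocyte markers, Plin1, Cidec, Lep, Cidea and Ucp1 were not above background on any array, and Adipoq and Retn on 1. The summed log2 level of Fabp4, Car3 and Scd1, which muscle also expresses, was 39.4 to 40.5 in the MCU knockout. It was 37.3 to 38.3 in the MCUb knockout and 38.0 to 39.0 in control. Car3 had a change of 1.15 in the MCU knockout (SE 0.31, limma adjusted p = 0.306) and one of 0.17 in the MCUb knockout, and Scd1 had changes of 0.49 and -0.40 (SE 0.30). Fabp4 lay below control without overlap in each knockout, with changes of -0.21 and -0.45 (SE 0.17). Of all 10 markers, 7 lay below control in each knockout. Most of these were above background on 1 array or none, so that count has no usable reading. Of Fabp4, Car3 and Scd1, only Fabp4 lay below control in the MCU knockout, and Fabp4 and Scd1 in the MCUb knockout. The summed log2 level of 8 endothelial markers was 73.1 to 74.3, 70.5 to 74.1 and 71.8 to 77.5 in the MCU knockout, the MCUb knockout and control. Of 9 measured endothelial markers, 6 lay below control and 3 above in the MCU knockout (median -0.04, from -0.41 to 0.11). In the MCUb knockout 7 lay below and 2 above (median -0.18, from -1.09 to 0.26). Against control, Kdr was at -0.13 and -1.09 and Gpihbp1 at -0.33 and -0.28. The summed log2 level of 4 macrophage markers was 32.7 to 33.9, 30.1 to 35.9 and 32.6 to 35.1 in the same order. Those 4 had mean deviations of -0.16, -0.30 and -0.01 on the MCU knockout arrays and of -0.94, -0.07 and 0.52 on the MCUb knockout arrays. Of 8 measured macrophage markers, 2 lay below control and 6 above in each knockout, with medians of 0.27 and 0.14. Their changes ran from -1.25 to 0.80 in the MCU knockout and from -0.81 to 0.48 in the MCUb knockout. Csf1r was at 0.80 and 0.20 against control, while Adgre1 was above background on 2 arrays and C1qb on none. The part of these cell types in the members' levels was not tested.

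**Figure D4:**
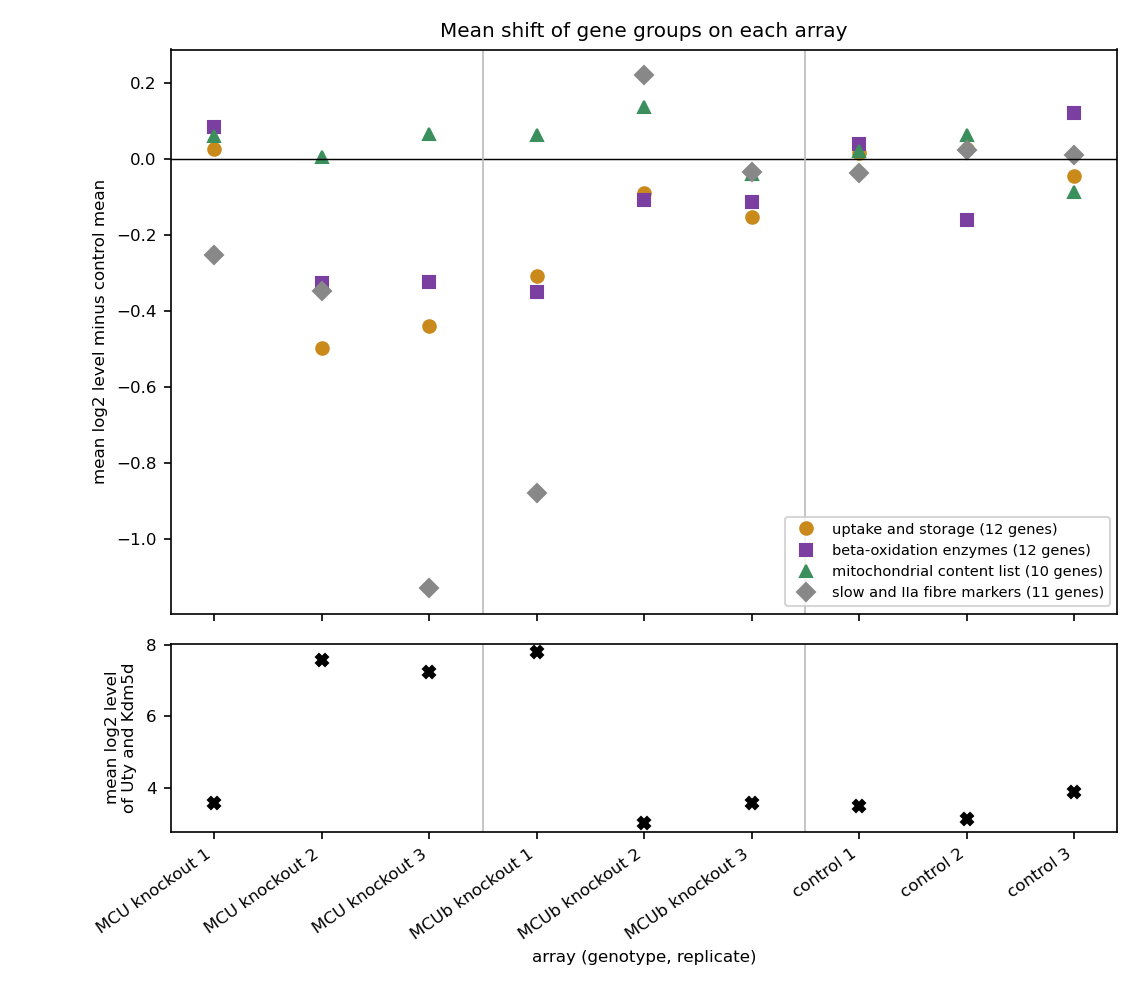
Upper panel: mean log2 level, relative to the control mean, of uptake and storage genes, beta-oxidation enzymes, the mitochondrial content list and the slow and IIa fibre markers on each array. Lower panel: mean log2 level of Uty and Kdm5d. As a mean over 12 genes each, uptake and storage genes and beta-oxidation enzymes lie at -0.31 or lower on the 3 arrays with Uty and Kdm5d signal and at -0.16 or higher on the other 6.

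Of the other genes of lipid handling, 0 passed the adjusted threshold in limma in any of the 3 comparisons. The counts of called genes in these lists are at an unadjusted p under 0.05, where 5.35% of all probe sets were lower and 4.76% higher in the MCU knockout, and 4.21% lower and 3.90% higher in the MCUb knockout. Of 17 measured transcription regulators, 13 lay below control in the MCU knockout (median -0.45) and 12 in the MCUb knockout (median -0.15). At that level 3 were lower and 1 higher in the MCU knockout, and 1 lower and 2 higher in the MCUb knockout. Lpin1, a phosphatidate phosphatase that also coactivates PPAR, was at 15.33, 15.13 and 15.07 in the MCU knockout, 15.85, 15.57 and 15.85 in the MCUb knockout, and 15.85, 16.04 and 15.80 in control. MCU knockout arrays lay below all others, with a change of -0.72 against control (SE 0.18, limma adjusted p = 0.251) and -0.58 against the MCUb knockout (limma adjusted p = 0.542). Nrip1, a corepressor of oxidative genes, was at 9.44, 9.74 and 9.73 in the MCUb knockout, against 7.74, 9.08 and 8.49 in control (change 1.20, SE 0.34, limma adjusted p = 0.484), and had a change of 0.52 in the MCU knockout.

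Peroxisomal oxidation genes lay on both sides of control: 7 of 17 lay below control in the MCU knockout (median 0.11) and 8 of 17 in the MCUb knockout (median 0.01). At an unadjusted p under 0.05, 1 was lower and 1 higher in the MCU knockout, and 1 lower and 3 higher in the MCUb knockout. Scp2, a sterol carrier and peroxisomal thiolase, was at 8.08, 7.81 and 8.75 in the MCU knockout, 8.31, 8.46 and 8.31 in the MCUb knockout, and 7.38, 8.15 and 6.94 in control, with changes of 0.72 and 0.87 (SE 0.31, limma adjusted p of 0.474 and 0.555). Ehhadh, the peroxisomal bifunctional enzyme, had changes of 0.32 and 0.61 (SE 0.25) and was above background on 7 arrays. The 1 lower gene in each knockout was Acot8, a peroxisomal thioesterase. Acot8 was above background on 1 array only, so it has no usable difference.

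Among 19 other mitochondrial acyl-CoA genes, 13 lay below control in the MCU knockout and 11 in the MCUb knockout, with medians of -0.13 and -0.05. At an unadjusted p under 0.05, 1 was lower and 2 higher in the MCU knockout, and 1 lower and 0 higher in the MCUb knockout. Bdh1, of ketone body use, had a change of -1.21 in the MCU knockout (SE 0.29, 2.32-fold lower, limma adjusted p = 0.248) and one of -0.61 in the MCUb knockout. Pccb, a subunit of propionyl-CoA carboxylase, had changes of -0.52 and -0.93 (SE 0.28, limma adjusted p of 0.554 and 0.530). For 18 other genes of uptake and activation the medians were -0.09 and -0.03, with 2 lower at that level in the MCU knockout, 1 lower in the MCUb knockout and 0 higher in either. Acss2, the cytosolic counterpart of Acss1, was at 8.40, 8.38 and 7.63 in the MCU knockout, 8.60, 9.09 and 8.83 in the MCUb knockout, and 9.33, 9.06 and 9.69 in control. Its MCU knockout change was -1.22 (SE 0.26, 2.34-fold lower, limma adjusted p = 0.155), and MCU knockout and control did not overlap. Acsl5, an acyl-CoA synthetase, had changes of -0.59 and 0.15 (SE 0.23).

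The 26 other glycerolipid and droplet genes had medians of -0.05 and -0.11 against control, with 2 lower and 1 higher at that level in the MCU knockout and 0 in the MCUb knockout. G0s2, the inhibitor of the lipase encoded by Pnpla2, was at 7.93, 8.29 and 8.38 in the MCU knockout, 8.79, 10.54 and 10.08 in the MCUb knockout, and 9.42, 8.61 and 10.63 in control. All MCU knockout arrays lay below all other arrays, with changes of -1.36 against control (SE 0.50, limma adjusted p = 0.416) and -1.60 against the MCUb knockout (SE 0.50, limma adjusted p = 0.573). In the list of malonyl-CoA synthesis and AMPK, 9 genes had medians of 0.01 and 0.11, and 3 were lower at that level in the MCU knockout and 0 in the MCUb knockout, with Acaca, the carboxylase that makes malonyl-CoA, at -0.64 and -0.44 (SE 0.27) and Prkag1, an AMPK subunit, at -0.57 and 0.04 (SE 0.25).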

How the data were processed

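Total RNA of whole muscle was hybridised to Affymetrix Clariom S mouse arrays. Per the submitters' processing notes the authors used Affymetrix Expression Console; its version, summarisation, normalization and log base are not given in the sources used here. The authors' deposited values (2.33 to 19.9) were read as log2, so folds rest on that reading, and array medians were 5.51 to 5.60. Of 28846 values per array, 6640 control features were left out. Of 22206 probe sets, 19572 had 1 gene symbol, 0 several and 2634 none, and all 19572 matched RefSeq gene IDs (GRCm38.p6 table). Background limits were 5.87 to 5.92.

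The fit used lmFit and eBayes of limma 3.58.1 under R 4.3.3, two-sided, as 1 model of 3 group means without covariates, with 6 residual and 5.06 prior degrees of freedom and a median SE of 0.23, and the code was tested on simulated data. The number of arrays limits the precision. Values on every array were due for members at an unadjusted p under 0.05 in any comparison, at least 2 per role, and Acot1 and Acot2, and up to 2 genes of each other list were named by smallest p, besides Mcu and Y-linked genes. Other genes were singled out after their values were seen. Members and lists were chosen with earlier results of these data known. Alternatives were a filter, quantile normalization, centring, an intensity trend with robust prior, array weights, only the groups compared, a replicate block, the Y-linked level as covariate, the mean over a gene's probe sets and leaving out each array. The fit on the 6 arrays without Uty and Kdm5d signal was chosen after seeing the data.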

Additional observations from a re-analysis of the deposited data

Results flagged for a closer look

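Ucp3 stood out because every MCU knockout array lay above the control mean and every MCUb knockout array below it. The changes were 0.85 on the log2 scale in the MCU knockout and -1.07 in the MCUb knockout, from the same control arrays. MCU knockout and control overlapped, with MCU knockout replicate 2 at 11.39 and the control arrays from 10.80 to 11.79. The test of the difference itself, 1.92 between MCU knockout and MCUb knockout, had a limma adjusted p of 0.135, and between 0.0738 and 0.719 under the alternatives, so it did not pass in any of them. Over all probe sets 2.12% showed such a split of the knockouts around the control mean, and 1 of the 37 members did, a share near that background.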

How the results depend on the processing

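The count of members past the adjusted threshold was 0 in each comparison under all 19 alternatives. Of 13 gene results tried under each, all 247 values kept their direction, with a lowest adjusted p of 0.0738. Part of this was fixed in advance, because several alternatives cannot change a gene's log2 change. These were the filter, the intensity trend, only the groups compared, the replicate block and the mean over a gene's probe sets. Leaving out an array of the group not compared likewise leaves the log2 change the same. That no member passed says little where an alternative called 0 of all probe sets: against control these were the 6 arrays without Uty and Kdm5d signal for both knockouts and, for the MCUb knockout, leaving out control replicate 1 or MCUb knockout replicate 1 or 3. Members at an unadjusted p under 0.05 between MCU knockout and control, 5 as reported, numbered 9 with an intensity trend and robust prior, 8 with array weights, 1 with the Y-linked level as covariate, 2 on the 6 arrays without Uty and Kdm5d signal, and 3 to 12 with 1 array left out (12 without MCU knockout replicate 1, 3 without MCU knockout replicate 3, 8 without control replicate 2). Between MCUb knockout and control, 6 as reported, they numbered 3 on those 6 arrays and 2 to 6 with 1 array left out (3 without MCUb knockout replicate 1, 2 without control replicate 1). Between the knockouts, 2 as reported, there was 1 with the filter, with quantile normalization, with only the 2 groups compared and with the Y-linked covariate, and they numbered 1 to 4 with 1 array left out (4 without MCU knockout replicate 1).

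The members' median for MCU knockout minus control was -0.043 with the Y-linked covariate and 0.075 on the 6 arrays, and for MCU knockout minus MCUb knockout 0.217 on the 6 arrays, which hold 1 MCU knockout array. With the replicate block the counts were 4, 5 and 1. Same-numbered arrays correlated between -0.121 and 0.088 in their deviations, and differently numbered arrays between -0.118 and 0.093. No pairing by number showed, although these values cannot exclude one. On those 6 arrays the MCU knockout changes were -0.24 for Dgat2, -0.50 for Plin5, -0.64 for Acss1, -0.21 for Hadha and -0.43 for Eci1. Under single alternatives up to 13 of 37 members changed sign, none with a change over 0.55. The cause of these shifts was not tested, and genes under background have no usable difference.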
